A study of Mus musculus with 4 samples.

Results

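The m6A peaks of 8 genes of the Akt and mTOR pathway (*Mtor*, *Rptor*, *Akt1*, *Akt2*, *Tsc1*, *Tsc2*, *Rheb* and *Rps6kb1*) were examined in the mouse spinal cord after nerve injury. The peaks were found by gene name in 3 deposited tables, which were a peak list for chronic constriction injury (CCI), a peak list for sham surgery and a table of differential peaks. All 8 genes were symbols of the RefSeq annotation, and 7 of them had peaks, out of 13554 gene names with a peak in either list. Tissue came from C57BL/6J mice of 6 to 8 weeks, 7 days after CCI, a loose ligation of the sciatic nerve that produces neuropathic pain, or after sham surgery. Each group had 1 library of RNA precipitated with an antibody against m6A (IP) and 1 input library, and the number of mice behind a library is not given in the sources used here. With 1 library of each kind per group, no test between CCI and sham was possible, and every ratio below describes these libraries without a replicate check.

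Akt kinases act downstream of growth factor receptors and PI3K. They phosphorylate TSC2, which with TSC1 forms the complex that keeps the small GTPase RHEB inactive, and RHEB in its active form switches on mTOR complex 1 (mTORC1), the complex that holds the kinase mTOR and its scaffold RAPTOR, the product of *Rptor*. mTORC1 phosphorylates the S6 kinase S6K1, the product of *Rps6kb1*, and promotes translation, and in the spinal cord this pathway is known for its part in pain sensitization. m6A is a methyl mark on adenosines of mRNA that is commonly found near stop codons and in 3′-UTRs.

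The tissue was checked against marker genes. All 7 markers of spinal cord neurons, all 5 of oligodendrocytes, all 5 of astrocytes and all 5 of microglia had a peak in both lists, as had 6 of 7 Hox genes of the spinal cord, with *Hoxc9* absent. Of 7 genes of the dorsal root ganglion, 5 had a peak in sham and 2 in CCI. *Isl1* and *Prph*, which spinal motor neurons also express, were in both lists. *Scn10a*, *Scn11a* and *Mrgprd*, which mark nociceptive sensory neurons, had peaks only in the sham list, with highest fold enrichments of 8.13, 9.68 and 19.8. *Trpv1* and *Avil* had none. Of 4 skeletal muscle genes, *Tnnt3* had 2 peaks in sham and none in CCI, and *Acta1*, *Ckm* and *Myh4* had none in either list. The lists hold no transcript levels, and the part of these sham peaks in the results below was not tested.

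The 8 genes held 29 of the 33556 peaks of the CCI list and 25 of the 34406 peaks of the sham list. The count was 2 in each list for *Mtor*, 6 in CCI and 5 in sham for *Rptor*, 6 in each for *Akt1*, and 4 in CCI and 2 in sham for *Akt2*. It was 7 in CCI and 6 in sham for *Tsc1*, 3 in each for *Tsc2*, 1 in each for *Rps6kb1*, and 0 in each for *Rheb*. The median gene had 2 peaks in each list, so *Tsc1*, *Akt1* and *Rptor* carried many peaks for a single gene. 94.6% of the genes in the CCI list had fewer peaks than *Tsc1*, and 91.1% had fewer than *Akt1* or *Rptor*. The strength of a peak is its fold enrichment, the ratio of IP over input that the authors computed. The median fold enrichment of the members' peaks was 5.21 in CCI and 4.73 in sham, against 5.73 and 5.70 over all peaks.

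Peaks of the lists were paired where each was the other's best partner by shared exonic bases, which gave 27236 pairs over all genes and 24 pairs with a member. The log2 ratio of CCI over sham fold enrichment had a median of -0.03 over the member pairs and 0.03 over all pairs. 12 member pairs were lower in CCI, where 47.8% of all pairs were lower, and 12 were higher. 3 member pairs, in *Mtor*, *Rptor* and *Tsc1*, were at least 2-fold higher in CCI, against 8.58% of all pairs. No member pair was at least 2-fold lower in CCI, against 7.23% of all pairs. In bulk tissue, more methylation per transcript, fewer cells of a type and less RNA per cell cannot be told apart.

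**Figure D1:**
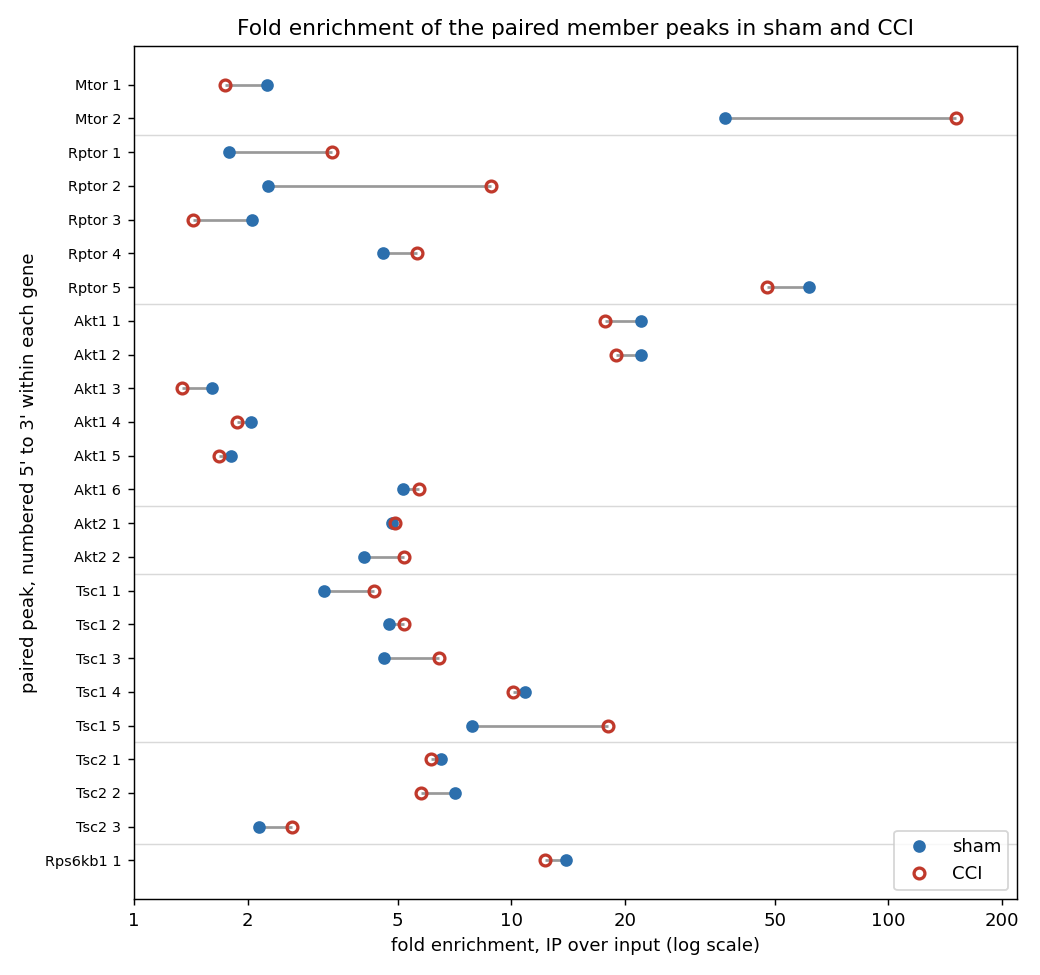
Fold enrichment of IP over input (log scale) of the 24 paired member peaks in sham (filled blue) and CCI (open red), 1 line per pair, ordered from 5′ to 3′ within each gene; there are no replicates and so no error bars. Most pairs lie close together, and the pairs that stand far apart are the last peak of *Mtor* (36.9 and 151), the second of *Rptor* (2.27 and 8.86) and the last of *Tsc1* (7.86 and 18.1), all higher in CCI.

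*Mtor* encodes the kinase of both mTOR complexes. It lies on the plus strand at chr4:148448582-148557685 (GRCm38), and both of its peaks were in the 3′-UTR. The peak at the very end of the transcript, chr4:148557443-148557683 in CCI, stopped 2 bp before the RefSeq 3′ end of the gene. Its fold enrichment was 151 in CCI and 36.9 in sham, a log2 ratio of 2.03, and 98.5% of all pairs had a lower ratio. This was the strongest peak of the 8 genes in CCI and the largest ratio among their pairs. The confidence of the peak did not follow its fold enrichment. The log10 false discovery rate (FDR) of IP over input was -68.5 in CCI and -92.5 in sham, so the peak with the larger fold was the less certain. The borders also differed, with 241 bp in CCI and 301 bp in sham. The second *Mtor* peak, 452 bp from the 3′ end in CCI, went the other way, at 1.74 in CCI and 2.25 in sham, a log2 ratio of -0.37.

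*Rptor*, which encodes the scaffold that recruits substrates to mTORC1, lies on the plus strand at chr11:119602905-119899591. Its strongest peak was again near the 3′ end, 105 bp from it, at chr11:119899187-119899486 in CCI. Its fold enrichment was 47.6 in CCI and 61.6 in sham, a log2 ratio of -0.37. The terminal peaks of *Mtor* and *Rptor*, which encode partners in mTORC1, thus had ratios of opposite sign in these libraries. The next peak upstream had 5.63 in CCI and 4.58 in sham (log2 ratio 0.30). The peak farther upstream, at chr11:119897451-119897600 in CCI, was weak in both lists, at 1.43 and 2.05 (log2 ratio -0.52). The sham peak there was 540 bp long and overlapped 2 CCI peaks of 150 bp each, of which the other had a fold enrichment of 2.42.

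The *Rptor* pair past 2-fold lay upstream of these, at chr11:119867360-119872381 in CCI. It had 3 exonic blocks that summed to 300 bp in CCI and 4 blocks that summed to 301 bp in sham. The fold enrichment was 8.86 in CCI and 2.27 in sham, a log2 ratio of 1.96 that exceeded 98.3% of all pairs, and here the FDR was also stronger in CCI (log10 FDR -29.0 against -12.5). The authors' annotation calls it 3′-UTR, although it ended 27210 bp from the 3′ end of the gene in CCI. Close to it, 1 exonic CCI peak of 121 bp at chr11:119865687-119865807, with a fold enrichment of 5.29, overlapped no sham peak. 1 sham peak of *Rptor* at chr11:119756259-119756349, with a fold enrichment of 1.79, was paired with a CCI peak of 3.34 that the authors assigned to *Gm23663* (log2 ratio 0.90).

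*Akt1* encodes the most widely expressed Akt kinase and lies on the minus strand at chr12:112653821-112674884. It was the only member with peaks in the 5′-UTR, and these were its strongest. The peak nearest to the transcription start, chr12:112674080-112674260 in CCI, had a fold enrichment of 17.7 in CCI and 22.1 in sham (log2 ratio -0.32). The peak beside it, which ended at position 112673816 in both lists, had 19.0 and 22.1 (log2 ratio -0.22). Its other border differed, with 61 bp in 1 block in CCI and 181 bp in 2 blocks in sham. The sham peak nearest to the start, chr12:112674110-112674734, had 2 blocks. Its larger block began at the first transcribed base of a RefSeq *Akt1* promoter, and its block of 13 bp lay farther upstream, inside the span of the noncoding gene *Gm30150*. The CCI peak nearest to the start began at base 17. The sequence below, from RefSeq (GRCm38.p6, chr12:112674247-112674276, minus strand), shows where the called blocks began at this start. It gives the first 30 transcribed bases, with those that both peaks covered in capitals, out of 151 bp that the peaks shared.
Akt1 transcription start: gcggggcggggagaagGCGGGCCGGCGGCG
Of the first 50 transcribed bases there, 86.0% were G or C, against a median of 56.0% over 32851 RefSeq promoters. The letters GGAC, the core of the usual m6A motif, were searched on the transcribed strand and were not in these 50 bases. They were in the same stretch of 18.9% of the promoters. The rest of the shared 151 bp was not searched.

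Of the 4 values of these *Akt1* 5′ peaks, 3 stood on a scale of even steps. The steps were fitted to the peaks with a fold enrichment of 10 to 30 and a log10 FDR above -10. The best fit was 0.521 in CCI and 1.16 in sham, with 86.3% and 91.1% of these same peaks within 0.051 of a step. Of the range itself, 19.6% and 8.77% lay that close to a step. The value 22.1, given to both sham peaks of the *Akt1* 5′-UTR, was shared by 136 peaks of the sham list, and 17.7 was shared by 91 peaks of the CCI list. The CCI value of 19.0 was shared by 26 peaks and did not stand on a step. The difference between 17.7 and 22.1 therefore spans few of the sham steps. Their log10 FDR was -4.27 in CCI and -4.52 in sham at the start, which is weak beside the other *Akt1* peaks.

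The other 4 *Akt1* peaks of each list lay toward the 3′ end and had low fold enrichments. The terminal peak, which reached the 3′ end itself at chr12:112653821-112654090 in CCI, had 5.69 in CCI and 5.18 in sham (log2 ratio 0.14). The second 3′-UTR peak had 1.68 in CCI and 1.81 in sham, and the exonic peaks had 1.88 and 2.04, and 1.34 and 1.61. Of the 6 *Akt1* pairs, 5 were lower in CCI, and the log2 ratios ran from -0.32 to 0.14.

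*Akt2* encodes the Akt kinase best known for insulin signalling and lies on the plus strand at chr7:27591552-27640826. Its exonic peak at chr7:27636981-27637332 was called with identical borders in CCI and sham. The fold enrichments were 4.93 and 4.83 (log2 ratio 0.03). The 3′-UTR peak that followed had 5.20 in CCI and 4.07 in sham (log2 ratio 0.35). Both pairs differed little between the lists. 2 further 3′-UTR peaks were in CCI only, at chr7:27638759-27638909 with a fold enrichment of 2.00 and at chr7:27639358-27639478 with 5.13, each with a weak log10 FDR of -3.72 and -4.69. No *Akt2* peak came closer than 1348 bp to the RefSeq 3′ end.

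*Tsc1* encodes hamartin, the stabilizing subunit of the TSC complex that restrains RHEB, and lies on the plus strand at chr2:28640993-28691172. It had the most peaks of the members in CCI and as many as *Akt1* in sham, and 4 of its 5 pairs were higher in CCI. The pair past 2-fold lay in the 3′-UTR, at chr2:28689849-28690089 in CCI, 1083 bp from the 3′ end. Its fold enrichment was 18.1 in CCI and 7.86 in sham, a log2 ratio of 1.20 that exceeded 93.9% of all pairs. The FDR was stronger in CCI here as well (log10 FDR -47.6 against -32.0). The longest peak of *Tsc1*, with 1199 bp of exonic sequence in 4 blocks at chr2:28681956-28687423, had the same borders in both lists and 10.1 in CCI and 10.9 in sham (log2 ratio -0.11). This broad peak was the most certain of the gene in both lists.

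The 3 *Tsc1* pairs upstream of it had log2 ratios of 0.44, 0.14 and 0.49. All 3 were labelled 3′-UTR by the authors although they ended between 9976 and 18251 bp from the 3′ end of the gene. 3 *Tsc1* peaks had no overlap in the other list. CCI had a peak of 2.91 at chr2:28687692-28687872 and one of 1.93 at chr2:28690748-28690838. Sham had a peak of 61 bp with a fold enrichment of 11.6 at chr2:28691107-28691167, 5 bp from the 3′ end. It had the weakest log10 FDR of the members' peaks, -2.11, and 329 sham peaks shared its value.

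*Tsc2* encodes tuberin, the GTPase-activating subunit through which Akt signals to mTORC1. It lies on the minus strand at chr17:24595816-24632676, and its 3′ end overlaps that of *Pkd1*, the polycystin-1 gene on the opposite strand at chr17:24548689-24596514. The 3 *Tsc2* peaks of each list lay at this overlap. The fold enrichments were 2.63 in CCI and 2.15 in sham for the peak nearest to the 3′ end (log2 ratio 0.29). They were 5.75 and 7.09 for the next (log2 ratio -0.30), and 6.13 and 6.51 for the last, which had the same borders in both lists (log2 ratio -0.09). In both lists the first and the second lay wholly inside the *Pkd1* span, and the sham peak of the second ended on the last base of *Pkd1*. The last had 321 of its 570 exonic bases outside *Pkd1*. The first also began 81 bp beyond the 3′ end of *Tsc2* in CCI and 51 bp in sham. The libraries were made with dUTP, which keeps the strand, but whether the calling used it is not given in the sources used here. The tables give no strand of a peak, so the first and second peaks are uncertain between *Tsc2* and *Pkd1*. In the row order of both lists, the first and the second stood together, after a *Pkd1* row. A gene of the plus strand followed them, *Zfp598* in CCI and *Nthl1* in sham. The last stood between *Rab26* and *Slc9a3r2*, both on the minus strand. What the row order reflects is not given in the sources used here, and the strand of these peaks was not tested. The second and the last peak share genomic positions.

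*Rheb*, the direct activator of mTORC1, had no peak in either list and no row in the differential table. Since the lists give no transcript level, too few reads and no methylation cannot be told apart for this gene. *Rps6kb1*, the mTORC1 target, lies on the minus strand at chr11:86498869-86544885 and had a single 3′-UTR peak of 570 bp, at chr11:86502166-86502735 in both lists. It had a fold enrichment of 12.3 in CCI and 14.0 in sham (log2 ratio -0.19), with log10 FDR values of -158 and -215. The peak of *Rps6kb1* was the most certain of any single-block peak of the 8 genes in both lists, and it was nearly the same in CCI and sham.

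**Figure D2:**
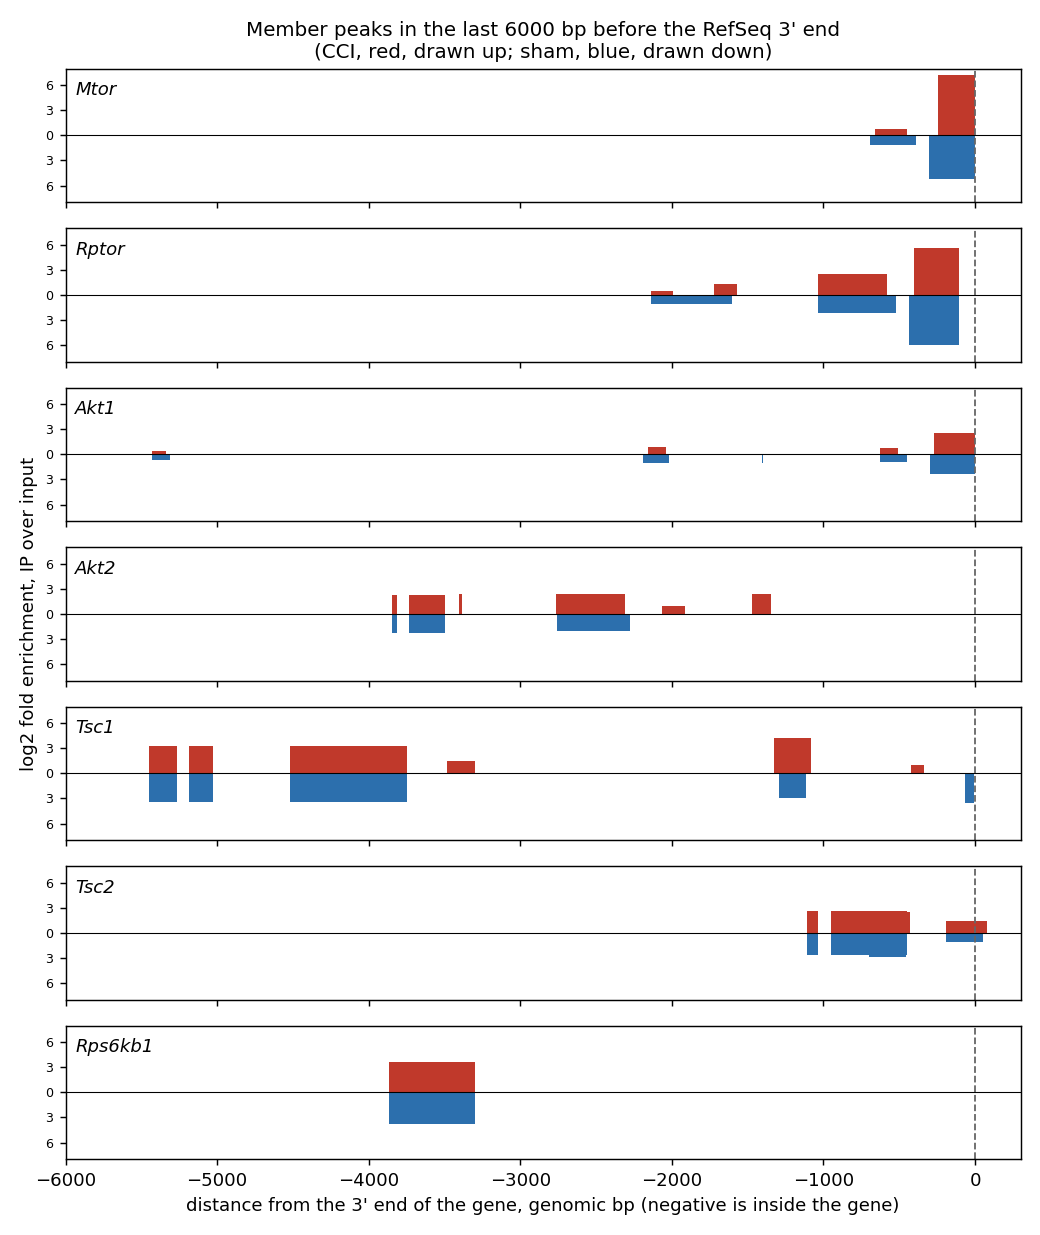
Exonic blocks of the member peaks within 6000 bp of the RefSeq 3′ end of each gene (dashed line at 0), with log2 fold enrichment of IP over input as height, CCI drawn up in red and sham drawn down in blue. *Mtor* and *Rptor* have their tallest peaks at the end of the gene, *Akt2* and *Rps6kb1* have none there, and the *Tsc2* peak nearest to the 3′ end runs past it.

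Most of the members' peaks were annotated to the 3′-UTR. The share was 79.3% in CCI (23 of 29, 95% Wilson interval 61.6 to 90.2) and 76.0% in sham (19 of 25, interval 56.6 to 88.5), where all peaks had 49.8% and 48.9%. The peaks of 1 gene share their transcript, and the intervals cover counting error only. Of the members' 3′-UTR peaks, 7 in CCI and 6 in sham were split over several exonic blocks. In CCI, peaks with this label ended as far as 27210 bp (*Rptor*) and 18251 bp (*Tsc1*) from the 3′ end of the gene. The *Tsc2* peaks that are uncertain between *Tsc2* and *Pkd1* were counted too. Labels could differ within a pair. The *Akt1* pair near chr12:112655860-112655979 was labelled exon 2 of 2 in CCI and exon 13 of 14 in sham. The terminal peaks did not all follow 1 pattern. 8 CCI peaks and 9 sham peaks ended less than 500 bp from the 3′ end or beyond it, and they belonged to *Mtor*, *Rptor*, *Akt1*, *Tsc1* and *Tsc2*.

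**Figure D3:**
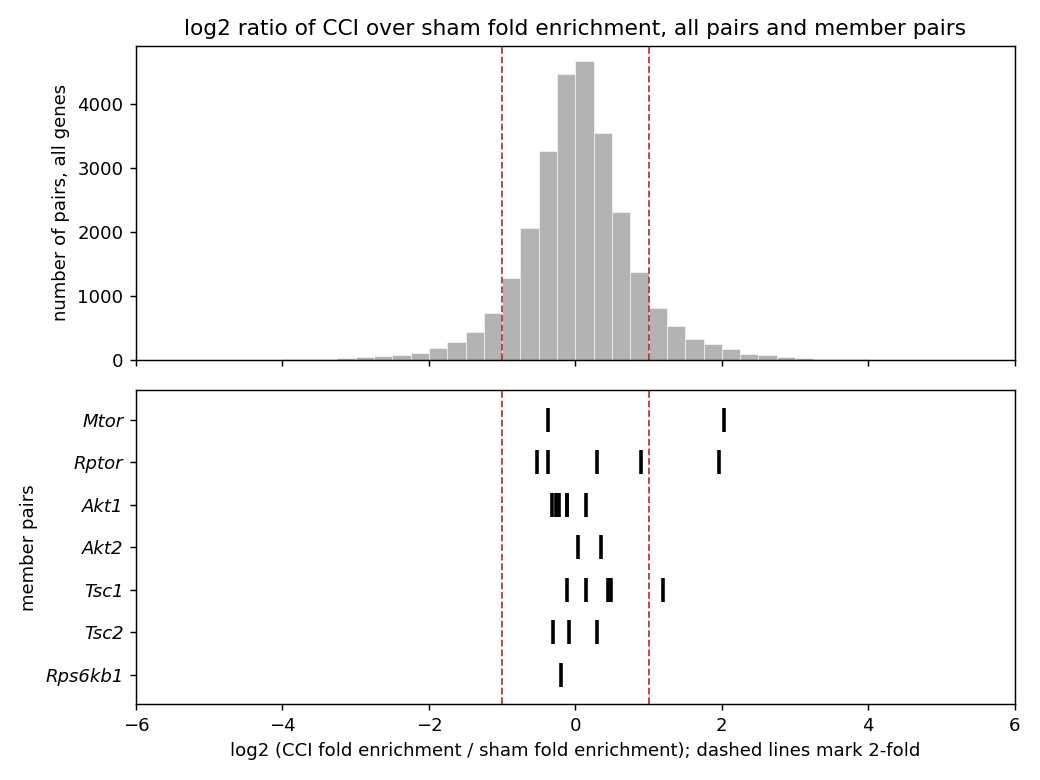
Histogram of the log2 ratio of CCI over sham fold enrichment of all 27236 pairs (upper panel, number of pairs per bin, with 4 pairs beyond the axis counted in the end bins) and the 24 member pairs by gene (lower panel, 1 tick per pair). The dashed lines mark 2-fold, and 3 member pairs lie beyond the right one and none beyond the left one.

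Most member pairs lay inside the spread of all pairs. The middle 50% of all pairs had log2 ratios from -0.37 to 0.44, and 15 of the 24 member pairs fell within it. The widest ranges within a gene were those of the mTORC1 genes, from -0.37 to 2.03 in *Mtor* and from -0.52 to 1.96 in *Rptor*, with ratios of both signs in each. The *Akt1*, *Akt2*, *Tsc2* and *Rps6kb1* pairs all had log2 ratios between -0.32 and 0.35. The sham peak had the stronger FDR in 17 of the 24 member pairs, where it did in 66.0% of all pairs. The CCI peak was shorter in 13 member pairs and longer in 5, against 44.4% and 31.5% of all pairs.

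Some member peaks were in 1 list only. 5 of the 29 CCI peaks had no overlapping sham peak, where 12.9% of all CCI peaks had none, and they belonged to *Akt2*, *Tsc1* and *Rptor*. 1 of the 25 sham peaks, in *Tsc1*, had no overlapping CCI peak, against 16.7% of all sham peaks. The fold enrichments of the CCI peaks without overlap ran from 1.93 in *Tsc1* to 5.29 in *Rptor*.

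The differential table, which lists peaks that the authors called different between CCI and sham, had 4 rows in 3 of the 7 genes with peaks. Of all gene names with a peak, 25.3% had a row. The *Mtor* row lay at chr4:148556993-148557293, over the weak upstream peak (1.74 and 2.25), and the terminal *Mtor* peak with the largest ratio had no row. The *Rptor* row lay at chr11:119897451-119897660, over the weak pair with 1.43 and 2.05, and the pair with 8.86 and 2.27 had none. *Tsc1* had a row over its pair past 2-fold, at chr2:28689879-28690089, and a row at chr2:28687722-28687872, where the CCI list had a peak and the sham list had none. The rows and the plain ratios of fold enrichment thus picked out different *Mtor* and *Rptor* peaks and the same *Tsc1* peak.

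The wider pathway was described with 86 other genes in 5 lists. 78 of them had a peak in either list and 72 in both, where 11761 of all 13554 gene names with a peak were in both. The 8 without a peak were the lysosomal Ragulator subunits *Lamtor3* and *Lamtor5*, the GATOR subunits *Nprl2*, *Sec13* and *Seh1l*, *Kptn* of the KICSTOR complex, *Prkaa2*, a catalytic subunit of AMPK, and *Rhebl1*, the close relative of *Rheb*. Neither *Rheb* nor *Rhebl1* therefore had a peak. The 182 pairs of these genes had a median log2 ratio of 0.08, and 84 were lower in CCI. 12 pairs were at least 2-fold higher and 11 at least 2-fold lower, where 8.58% and 7.23% of all pairs were. 26 of the 78 genes with a peak (33.3%) had a row in the differential table, against 25.3% of all gene names with a peak.

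**Figure D4:**
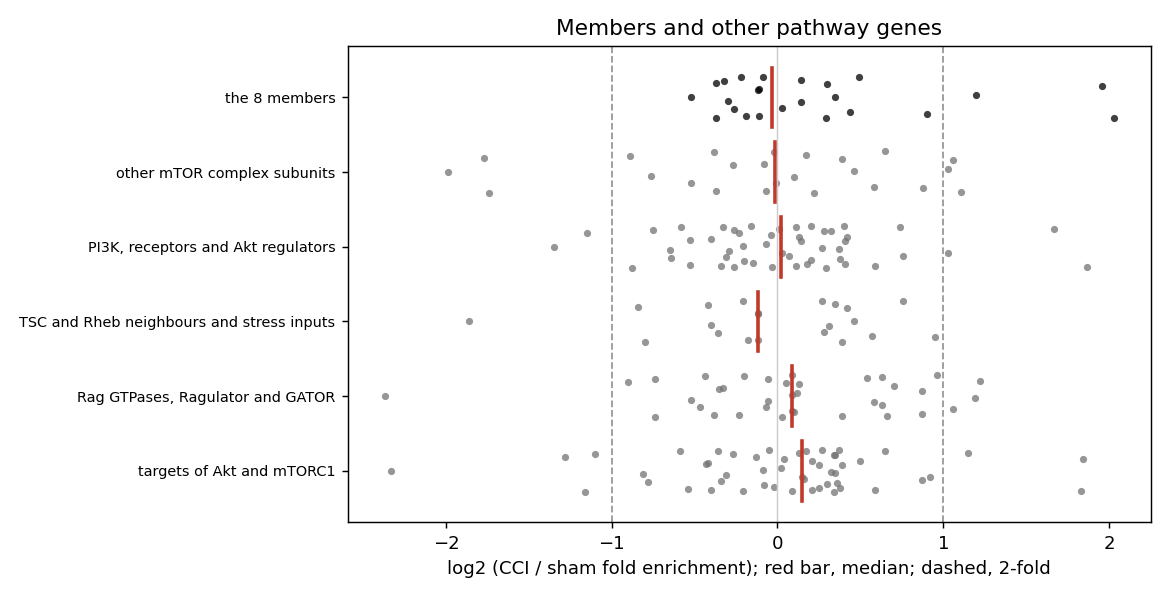
Log2 ratio of CCI over sham fold enrichment, 1 point per pair, for the 8 members (black) and the 5 lists of other pathway genes (grey), with the median of each list as a red bar and dashed lines at 2-fold. The medians lie between -0.12 and 0.15. Beyond 2-fold, the members have 3 points on the right and none on the left, and the 182 pairs of other genes have 12 on the right and 11 on the left.

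The other mTOR complex subunits (9 genes, 24 pairs) had a median log2 ratio of -0.02, with 3 pairs at least 2-fold higher and 3 at least 2-fold lower in CCI. *Akt1s1*, which encodes the Akt substrate PRAS40, had a 3′-UTR peak with a fold enrichment of 5.26 in CCI and 20.9 in sham (log2 ratio -1.99), and its other pairs had log2 ratios of -0.89, -0.52 and 0.46. *Deptor*, which encodes an inhibitor of mTOR, held ratios of both signs. It had a 5′-UTR peak with 4.78 in CCI and 16.3 in sham (log2 ratio -1.77), and an overlapping one at -1.74. Its 3′-UTR peaks were more than 2-fold higher in CCI, at 8.24 and 3.83 (log2 ratio 1.11) and at 3.85 and 1.85 (1.06). The highest sham value of the list, 23.2, was at *Telo2*, which helps mTOR to fold and had a peak in sham only.

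Receptors, PI3K and regulators of Akt (18 genes, 50 pairs) had a median log2 ratio of 0.02. *Phlpp1*, a phosphatase that acts on Akt, gave 2 of the 5 highest ratios among the other pathway genes, the members left aside. These were at 11.7 in CCI and 3.20 in sham in an exon (log2 ratio 1.87) and at 20.3 and 6.39 in the 3′-UTR (1.67). 2 stronger *Phlpp1* pairs were lower in CCI, at 26.6 and 38.3 (log2 ratio -0.53) and at 23.6 and 43.4 (-0.88), where the sham peak of 43.4 was assigned to *Gm38235*, and the fifth had a log2 ratio of 0.27. Its relative *Phlpp2* had the highest sham peak assigned to this list, with 48.7 in CCI and 45.2 in sham. The neighbours of TSC and RHEB and the stress inputs (14 genes, 21 pairs) had the lowest median, -0.12. *Sesn1*, which encodes a stress-induced inhibitor of mTORC1, had 14.1 in CCI and 51.1 in sham at its stronger 5′-UTR peak (log2 ratio -1.86). Its other 5′-UTR pair had 7.69 and 10.3 (log2 ratio -0.42), and its 3′-UTR pair had a log2 ratio of 0.42. *Stk11*, the gene of the AMPK-activating kinase LKB1, had the highest values, 212 in CCI and 174 in sham (log2 ratio 0.28).

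The Rag GTPases, Ragulator and GATOR (25 genes, 36 pairs), which carry the amino acid signal to mTORC1 on the lysosome, had a median log2 ratio of 0.09. *Lamtor2*, a Ragulator subunit, gave the lowest ratio of all lists, with 18.9 in CCI and 97.6 in sham at a 3′-UTR peak (log2 ratio -2.37). *Rragc*, which encodes RAGC, had 31.3 in CCI and 13.4 in sham (log2 ratio 1.22). Targets of Akt and mTORC1 (20 genes, 51 pairs) had the highest median, 0.15. *Eif4ebp2*, which encodes a repressor of cap-dependent translation, held ratios of both signs. It had 8.34 in CCI and 41.8 in sham at its 5′-UTR peak (log2 ratio -2.33). At a 3′-UTR peak it had 11.5 and 3.23 (log2 ratio 1.83). In both pairs the CCI peak was shorter, at 61 and 91 bp against 211 bp in sham. Its other pairs, in the 3′-UTR, had log2 ratios of 0.09 and 0.92. *Gsk3a*, the gene of an Akt substrate kinase, had the strongest peak of the list in both groups, at 579 in CCI and 162 in sham in the 5′-UTR (log2 ratio 1.84).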

How the data were processed

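MeRIP-seq was run on spinal cord RNA, and CCI and sham each had 1 IP and 1 input library. The submitters' processing notes name fastp, HISAT2, HOMER, ChIPseeker and GRCm38, and the methods of the study name Cutadapt, bowtie, MACS2 and ChIPseeker. The authors deposited a fold enrichment per peak, a ratio of IP over input, and a log10 FDR, handled as a score. The differential table also holds the authors' log2 fold change, p-value and FDR of CCI against sham, which were not used. The depth of the libraries is unknown, since no counts were used.

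Peaks were paired by exonic bases (at least 1 bp, same annotated strand) as mutual best partners, with Python 3.11.15 and pandas 2.3.3. The pairing was tested on simulated peaks, where 2700 of 2700 known pairs were recovered. These peaks were single blocks set far apart, so the test could not cover split, adjacent or overlapping peaks. Called means a ratio of at least 2-fold. 2 other pathway genes were read under older names. Named genes were the 8 members, the gene with the highest sham value in each list and the genes without a peak. Those with the 5 highest and 5 lowest ratios among the other pathway genes were also named. A list of forebrain markers is not reported here. Members and lists were chosen with earlier results of these data known. Alternatives covered overlap, FDR, fold enrichment, centring, strand and counting unit.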

Additional observations from a re-analysis of the deposited data

How the results depend on the processing

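The median log2 ratio of the member pairs (-0.03) lay close to 0 and changed sign with the processing. It was 0.08 where 50% of each peak had to be shared, 0.14 where weak peaks (under 2 in fold enrichment) were left out and 0.03 without *Tsc2*, an alternative chosen after seeing the data, and -0.19 with 1 pair per gene. No direction for the members as a whole was drawn from it. Pairs lower in CCI numbered 12 of 24, 7 of 19 without the weak peaks and 5 of 7 with 1 pair per gene. The 3 pairs past 2-fold stayed 3 under every alternative except 1.5-fold as the threshold, which gave 4, and 1 pair per gene, which gave 1. With the 50% overlap, 8 CCI peaks and 3 sham peaks had no partner. The median of the other pathway genes (0.08) was -0.07 with 1 pair per gene. The other 33 of 43 values kept their direction or stayed within 1.5 times, a log2 change of 0.1 or the interval of the main value. No paired analysis was possible because the design has a single IP and input per group, and for the same reason no library could be left out. The spread between animals was not measured, borders and inputs differ between the lists, and the depth is unknown.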
